A study of Mus musculus with 8 samples.

Results

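Keratins are the intermediate filament proteins of epithelial cells. A type I and a type II keratin join as an obligate pair, and which pair a cell makes depends on its layer and state. In stratified squamous epithelium such as that of the esophagus, Krt5 and Krt14 mark the basal layer and Krt4 and Krt13 the suprabasal layers. Krt1 and Krt10 mark suprabasal layers of cornifying epithelium, Krt6a, Krt6b, Krt16 and Krt17 are made after wounding or in hyperproliferation, and Krt8 and Krt18 form the filaments of simple epithelium. The keratin genes were taken as the protein-coding genes of the count table whose symbol is Krt followed by a number and at most 1 letter. Of 49315 gene identifiers, 53 were such genes, 28 of type I and 25 of type II. The pseudogene Krt74 was left out.

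The libraries came from whole esophagus of 8 male mice, 8 weeks old. Of these, 4 were EoE33 mice, which carry a transgene that overexpresses esophageal IL-33, and 4 were wild type C57BL/6J littermates. The promoter that drives the transgene is not given in the sources used here, and no further allele or treatment is named in the labels. The comparison asks how the transcripts of the esophagus differ when IL-33 is overexpressed there.

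Libraries held 17.73 to 24.07 in units of 1e6 counts. Levels are in CPM, counts per 1000000 counts after scaling of the library sizes. Among all genes tested, 31.3% rose and 32.1% fell. Each of 9 esophageal squamous markers (Krt5, Krt14, Krt4, Krt13, Trp63, Sox2, Tgm3, Cdh1 and Epcam) was tested, and 6 rose and 3 fell. Skeletal muscle markers fell in 7 of 7 members, with a summed level of 27191 to 29351 CPM in wild type and 7194 to 9698 CPM in EoE33. Wild type replicate 3 stood apart with airway markers (summed 1961 CPM against 374.2 to 543.3 CPM in the other wild type libraries), and wild type replicate 1 with liver markers (167.1 CPM against 5.1 to 13.4 CPM). In bulk libraries, fewer cells of a type and less RNA per cell cannot be told apart.

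In wild type the keratin transcripts were almost all Krt13 and Krt4. In EoE33 the basal pair and the wound keratins took large shares as well. Krt6a, Krt6b, Krt16 and Krt17 rose 98.3-fold to 229-fold, Krt14 16.6-fold and Krt5 3.92-fold, while Krt4 was 4.75-fold and Krt13 1.95-fold lower. Of the 53 keratin genes, 29 had enough counts to test. Of those, 11 rose and 12 fell at an adjusted p under 0.05 (edgeR quasi-likelihood test, adjusted over all 16760 genes tested), which is 37.9% and 41.4% of those tested. Over all genes tested, 31.3% rose and 32.1% fell, together 63.4%. The groups did not overlap for part of the tested keratins, EoE33 being higher in 11 and lower in 11, where the shares over all genes were 29.6% and 29.9%. Since 10 of the 29 had a mean under 1 CPM in one of the groups, some passed the count filter only through the group where they were high, and the counts over tested members are a description. The median log2 fold change of the tested keratins was −0.11, and that of all genes tested −0.01. Type I members rose in 5 and fell in 7 of 15 tested, and type II members rose in 6 and fell in 5 of 14.

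**Figure D1:**
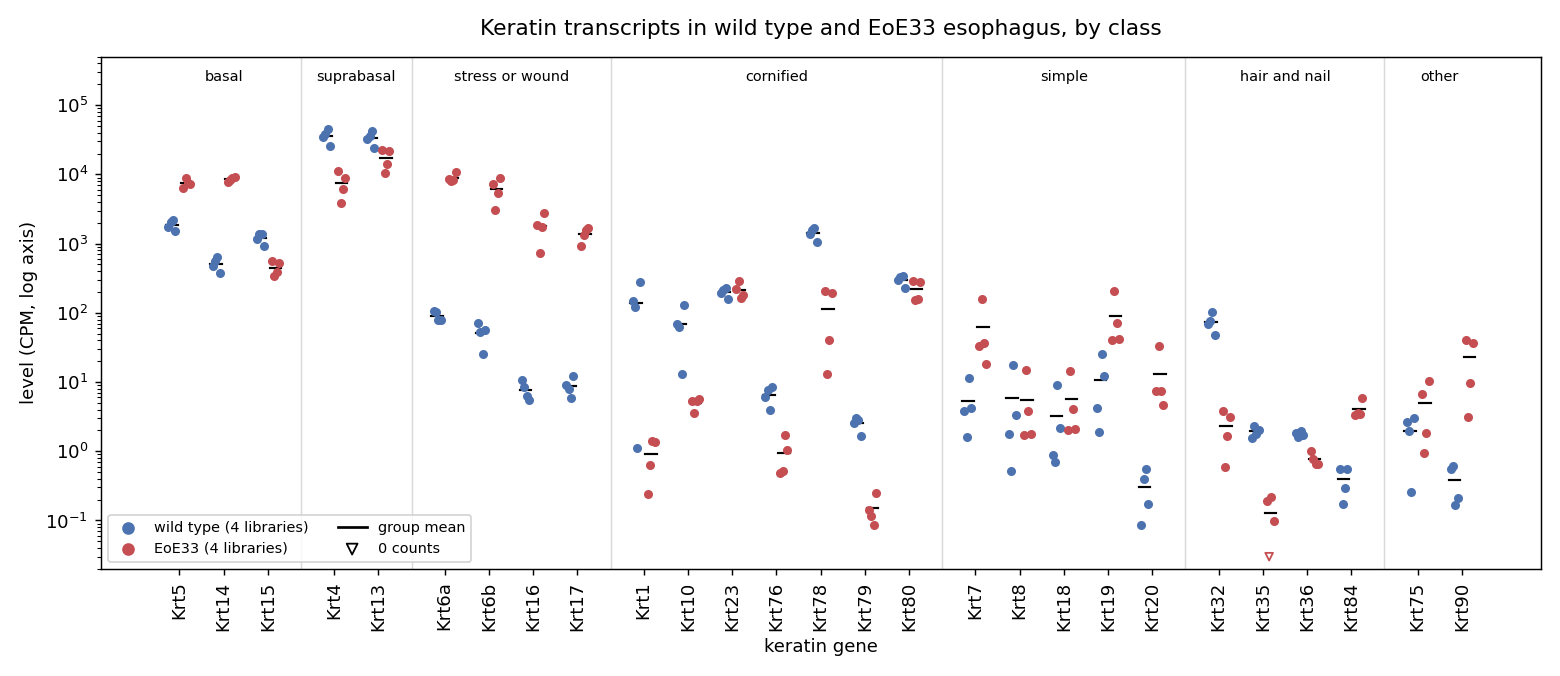
Level of each keratin with a mean of at least 1 CPM in either group, on a log axis of CPM, with 1 point per library, blue for wild type and red for EoE33, and a bar for the group mean. The 4 wound keratins lie between 5.53 and 105.8 CPM in wild type and between 730.35 and 10768 CPM in EoE33, while the simple keratins Krt8 and Krt18 overlap between groups.

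The whole family took 7.25%, 7.99%, 9.28% and 5.73% of all counts in wild type replicates 1 to 4, and 6.76%, 4.42%, 5.69% and 7.01% in EoE33 replicates 1 to 4. The groups overlapped, with means of 7.57% ± 1.48 and 5.97% ± 1.18 (SD, n = 4 each). The mean share was lower in EoE33, and no test was run on it. The composition differed clearly, as the shares below show. To compare levels between genes, counts were divided by the summed exon length of each gene in kb and given as a share of the sum over the family.

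By this measure Krt13 and Krt4 held 48.8% ± 0.29 and 44.2% ± 0.41 of wild type keratin transcripts (SD, n = 4). Behind them came Krt5 with 2.29% ± 0.2, Krt15 with 1.83% ± 0.14, Krt78 with 1.09% ± 0.06 and Krt14 with 0.769% ± 0.025 (SD, n = 4). These values lay in the same order in each of the 4 wild type libraries. The wound keratins together held 0.199% ± 0.067 (SD, n = 4).

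In EoE33 Krt13 was still first with 30.7% ± 5.11, followed by Krt14 with 16.6% ± 3.74, Krt6a with 12.5% ± 1.66, Krt5 with 11.7% ± 4.11, Krt4 with 11.3% ± 3.14 and Krt6b with 8.75% ± 1.98 (SD, n = 4). Krt13 was the highest in each EoE33 library, and Krt14 was above Krt6a in each. Over the libraries, the ranges of Krt14, Krt6a, Krt5, Krt4 and Krt6b each overlapped the next in this order. The basal class held 29.1% ± 7.75 and the wound class 27.8% ± 2.58, and Krt4 with Krt13 42% ± 8.18 (SD, n = 4). EoE33 replicate 2 had the highest basal share, 39.1%, and the lowest share of Krt4 with Krt13, 32.9%.

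**Figure D2:**
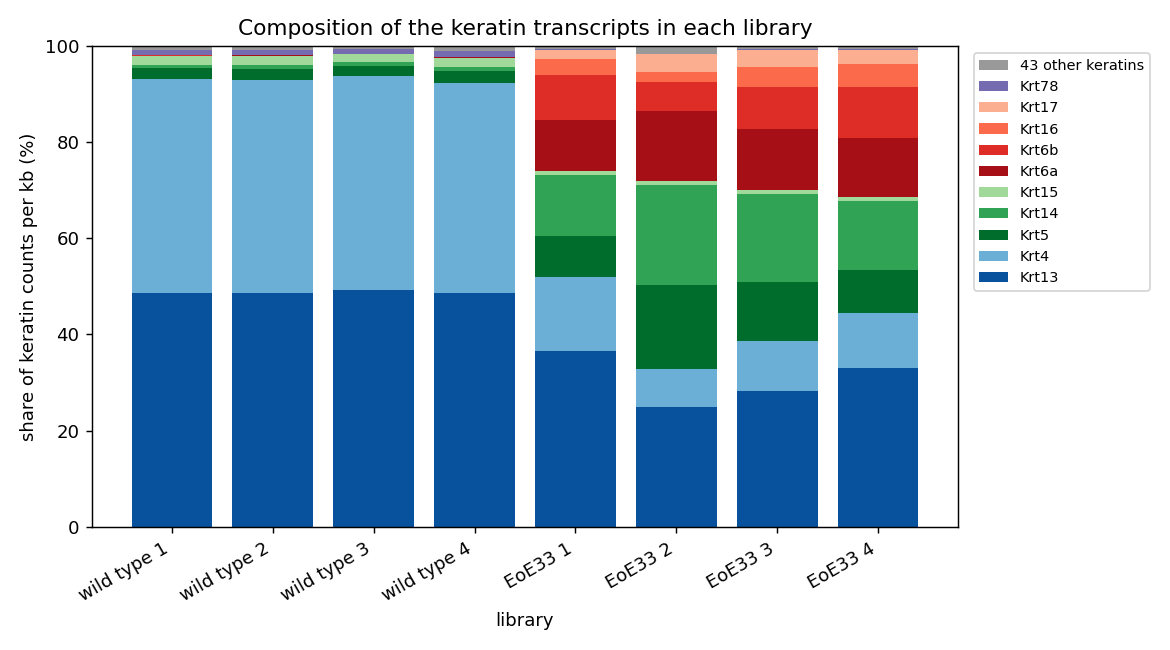
Share of each keratin in the summed keratin counts per kb, in percent, with 1 stacked bar per library and 43 keratins with small shares in grey. Krt13 and Krt4 fill 92.2% to 93.7% of the wild type bars and 32.9% to 52% of the EoE33 bars.

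The basal keratins did not move as one. Krt14, the type I partner of the basal pair, was at 468.5, 557.3, 647.7 and 377.4 CPM in wild type replicates 1 to 4 and at 7643, 8407, 8919 and 9139 CPM in EoE33 replicates 1 to 4. Every EoE33 library was above 10 times the highest wild type library, and the EoE33 libraries differed little, with a coefficient of variation of 7.79%. The log2 fold change of 4.06 had a standard error (SE) of 0.18 (edgeR adjusted p = 6.07e-07). Krt5, its type II partner, was at 1727, 2058, 2221 and 1538 CPM in wild type and at 6310.5, 8735, 7397 and 7159 CPM in EoE33. The groups were apart for Krt5 too, and its log2 fold change of 1.97 had a standard error of 0.15 (edgeR adjusted p = 5.85e-06). Krt15, a type I keratin of quiescent basal cells, went the other way. Its levels were 1177, 1385, 1379 and 927.2 CPM in wild type and 555.9, 340.7, 382.7 and 523 CPM in EoE33, with no overlap (log2 fold change −1.43, SE 0.19, edgeR adjusted p = 0.000176). Per kb, wild type libraries held 2.12 to 2.5 Krt15 transcripts for each Krt14 transcript, and EoE33 libraries 0.04 to 0.072.

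Both suprabasal keratins of internal stratified epithelium fell. Krt4, of type II, was at 34509, 38269, 45153 and 25383 CPM in wild type and at 11262, 3848, 6142 and 8948 CPM in EoE33. Every EoE33 library was below every wild type library, and replicate 2 was the lowest (log2 fold change −2.25, SE 0.33, edgeR adjusted p = 0.000405). Its type I partner Krt13 was at 32277, 35836, 42621 and 24149 CPM in wild type and at 22800, 10434, 14164 and 21827 CPM in EoE33. The groups did not overlap, but wild type replicate 4 stood only just above EoE33 replicates 1 and 4. Its log2 fold change of −0.96 had a standard error of 0.27 (edgeR adjusted p = 0.0121). The call was lost without wild type replicates 1 and 3 (edgeR adjusted p = 0.0877) and without a low-count filter (edgeR adjusted p = 0.0584).

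The promoter windows of Krt5, Krt13, Krt10 and Krt32 are shown because these genes changed in opposite directions, Krt5 upward and the others downward, and have a start site in the RefSeq table (GRCm38.p6). Each window runs from 250 bases before to 50 bases after the start, on the minus strand, which is the strand of the gene. Capitals mark matches, on either strand, to TATAAA (the TATA box), TGANTCA (AP-1), TTC and GAA with 4 bases between (STAT6), TTGCNNAA (C/EBP), GCCNNNGGC (AP-2) and CACCC (Krueppel-like factors); overlapping matches run together.
Krt5, chr15:101712856-101713155: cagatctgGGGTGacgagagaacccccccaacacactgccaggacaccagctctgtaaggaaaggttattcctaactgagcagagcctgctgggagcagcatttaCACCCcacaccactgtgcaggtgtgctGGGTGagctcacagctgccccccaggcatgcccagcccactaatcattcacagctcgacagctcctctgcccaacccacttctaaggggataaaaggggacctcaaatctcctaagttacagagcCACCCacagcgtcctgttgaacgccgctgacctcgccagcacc
Krt13, chr11:100121517-100121816: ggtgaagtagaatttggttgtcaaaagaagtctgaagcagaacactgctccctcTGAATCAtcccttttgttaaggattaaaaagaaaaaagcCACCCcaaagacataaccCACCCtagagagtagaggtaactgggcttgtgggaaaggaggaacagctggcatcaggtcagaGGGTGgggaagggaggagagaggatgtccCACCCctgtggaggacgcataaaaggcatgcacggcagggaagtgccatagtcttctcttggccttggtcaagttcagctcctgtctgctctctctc
Krt10, chr11:99389315-99389614: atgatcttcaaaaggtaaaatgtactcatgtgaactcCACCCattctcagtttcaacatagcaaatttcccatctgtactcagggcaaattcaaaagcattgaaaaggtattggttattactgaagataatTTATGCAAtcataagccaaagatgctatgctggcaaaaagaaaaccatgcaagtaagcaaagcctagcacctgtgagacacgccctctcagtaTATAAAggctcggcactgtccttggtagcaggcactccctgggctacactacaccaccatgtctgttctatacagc
Krt32, chr11:100088220-100088519: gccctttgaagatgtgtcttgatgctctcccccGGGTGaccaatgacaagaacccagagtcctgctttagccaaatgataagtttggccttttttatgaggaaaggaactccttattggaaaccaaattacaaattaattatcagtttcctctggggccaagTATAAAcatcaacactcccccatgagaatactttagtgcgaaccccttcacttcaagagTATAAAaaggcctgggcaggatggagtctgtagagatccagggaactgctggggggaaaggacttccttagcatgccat

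Of the 53 keratins, 36 had a window in that table, and Krt13 had a further one, so that 37 windows were searched. The windows of Krt14 and Krt7 and the further window of Krt13 lie wholly inside the annotated genes, at a start downstream of the 5′ end, and are counted among the 37. TATAAA stood in 19 of the 37, and in 13.6% of all 32851 windows. In Krt10 it began 26 bases before the start and in Krt32 at 88 and 29 bases before it, and in Krt5 and Krt13 the letters were not found. CACCC stood in 31 of the 37 keratin windows and in 57.5% of all windows. AP-1 stood in 2 keratin windows, both of Krt13 (7.81% of all windows), C/EBP in 5 (10.8%), AP-2 in 7 (16.6%) and STAT6 in 3 (6.95%). The 3 STAT6 matches were in Krt25, Krt71 and Krt73, which had too few counts to test and so could not be called. Such matches describe letters, not bound sites. Krt4, Krt6a, Krt6b, Krt15, Krt16 and Krt17 are not in the table.

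All 4 wound keratins rose. Krt6a, a type II keratin, was at 105.8, 102.6, 78.5 and 78.1 CPM in wild type replicates 1 to 4 and at 8659.5, 8039.9, 8430.3 and 10768 CPM in EoE33. The EoE33 libraries lay close together, with a coefficient of variation of 13.6% (log2 fold change 6.62, SE 0.18, edgeR adjusted p = 6.57e-08). Its neighbour Krt6b was at 71, 52.7, 25.3 and 57.4 CPM in wild type and at 7179, 3095, 5416 and 8756 CPM in EoE33, a 118-fold rise (log2 fold change 6.89, SE 0.49). EoE33 replicate 2 was the lowest and varied from the others more than it did for Krt6a, and the groups were far apart. When the longest transcript of each was cut into overlapping windows of 150 bases, 15.8% of those of Krt6a and 18.8% of those of Krt6b occurred in another gene in the same orientation, so counts may be shared between them. Summed, Krt6a and Krt6b rose 106-fold.

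Krt16, a type I partner of Krt6a, was at 10.8, 8.43, 6.22 and 5.53 CPM in wild type and at 1871, 730.35, 1760.4 and 2727 CPM in EoE33. This was the largest rise of the family, 229-fold (log2 fold change 7.84, SE 0.51, edgeR adjusted p = 6.95e-06), and EoE33 replicate 2 was again the lowest. Of the Krt16 windows 18.4% occur in the gene model Gm11597, which had 2 counts over wild type and 248 over EoE33, against 722 and 147080 for Krt16. Krt17, also of type I and induced with them, was at 9.17, 7.86, 5.88 and 12.2 CPM in wild type and at 909, 1347, 1551 and 1654 CPM in EoE33. Its rise was 155-fold (log2 fold change 7.28, SE 0.32, edgeR adjusted p = 7.98e-07). EoE33 replicate 1, high in Krt16, was the lowest in Krt17, and the ratio of Krt16 to Krt17 per kb ranged from 0.537 to 2.04 over the EoE33 libraries. No window of Krt17, or of Krt14, occurs in another gene.

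Ratios within the conventional pairs are given by library, with no test. Summed per kb, type I to type II keratin transcripts stood at 1.08, 1.08, 1.09 and 1.09 in wild type replicates 1 to 4. In EoE33 the ratio was 1.27, 1.17, 1.26 and 1.28, above wild type in every library. Krt13 to Krt4 was 1.1 to 1.11 in wild type and 2.37, 3.18, 2.7 and 2.86 in EoE33. Krt14 to Krt5 was 0.307 to 0.364 in wild type and 1.51, 1.2, 1.51 and 1.6 in EoE33. In both pairs the type I member therefore took the larger part in EoE33, through a smaller fall in one and a larger rise in the other. Krt16 to Krt6a was 0.109 to 0.157 in wild type and 0.334, 0.14, 0.323 and 0.391 in EoE33, where replicate 2 lay within the wild type range. Krt17 to Krt6a overlapped between groups.

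**Figure D3:**
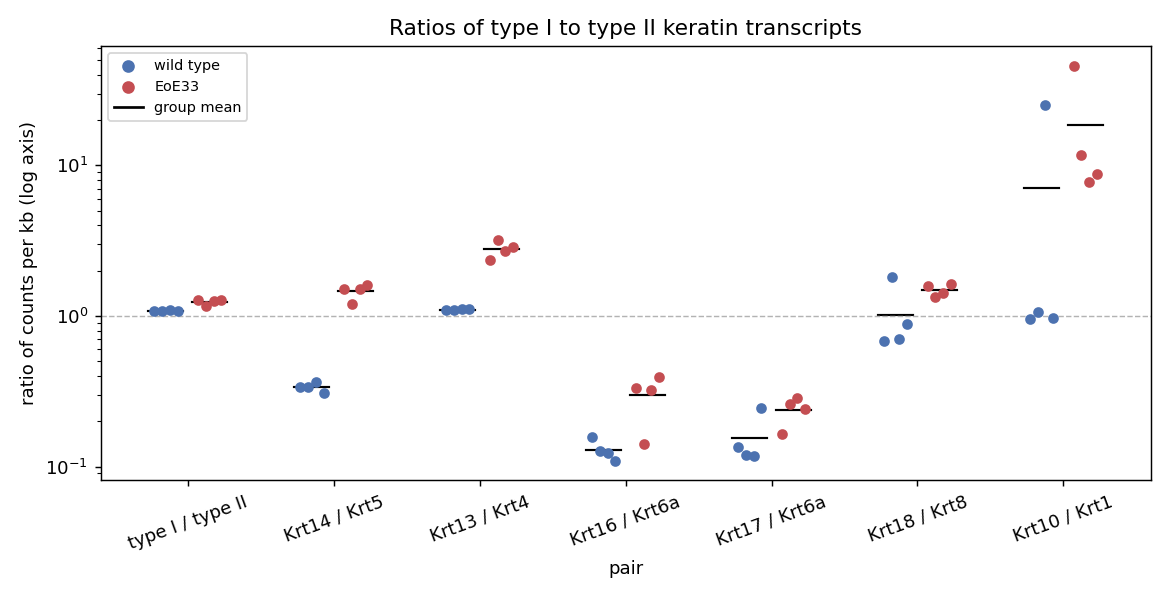
Ratio of type I to type II keratin counts per kb for the family and 6 pairs, on a log axis, with 1 point per library and a bar for the group mean. Krt14 to Krt5 and Krt13 to Krt4 do not overlap between groups, and the wild type points of Krt13 to Krt4 lie within 1.1 to 1.11.

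Keratins of cornifying epithelium fell in 5 of 7 tested members and none rose, where 32.1% of all genes tested fell and 31.3% rose. Another 4 of the 11 of this class had too few counts to test. Since 3 of the 7 had a mean under 1 CPM in EoE33, some passed the count filter only through wild type, and the counts are a description. Krt78, a type II keratin of differentiating keratinocytes, was the most abundant of the class in wild type. It was at 1363, 1570.0, 1659.8 and 1069 CPM in wild type and at 206.35, 13.2, 40.4 and 195.7 CPM in EoE33. The groups were apart, while EoE33 replicates 2 and 3 were far below replicates 1 and 4 (log2 fold change −3.63, SE 0.84, edgeR adjusted p = 0.00633). In limma-voom the log2 fold change was −4.34. Krt79, known from differentiated and duct-lining keratinocytes, was at 2.59, 3.07, 2.83 and 1.67 CPM in wild type and at most 0.25 CPM in EoE33 (16.6-fold lower, edgeR adjusted p = 1.25e-05). Krt76, found in oral epithelium, fell, with means of 6.53 ± 1.97 CPM in wild type against 0.945 ± 0.581 CPM (SD, n = 4 each).

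Krt1 and Krt10, the epidermal suprabasal pair, were lower in EoE33 but uneven in wild type. Krt1 was at 148.4, 122.5, 1.1 and 277.1 CPM in wild type and at 0.239, 0.644, 1.42 and 1.35 CPM in EoE33. Wild type replicate 3 thus lay within the EoE33 range. The log2 fold change of −7.20 had a standard error of 1.49 (edgeR adjusted p = 0.00379), or −6.60 without wild type replicate 4. It did not pass in limma-voom, where it was −5.96 (limma-voom adjusted p = 0.27). Krt10 was at 68.3, 62.1, 13.3 and 128.4 CPM in wild type and at 3.63 to 5.64 CPM in EoE33, with wild type replicate 3 again the lowest (13.6-fold lower, edgeR adjusted p = 0.00143). The ratio of Krt10 to Krt1 per kb was 0.961 to 1.06 in wild type replicates 1, 2 and 4 and 25.2 in replicate 3, and 7.78 to 45.9 in EoE33. Part of the Krt10 exons overlaps Gm11940 on the other strand, which had at most 0.286 CPM in any library.

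Krt23 and Krt80 of the same class did not pass. Krt23 was at 194.4, 215.3, 225.9 and 158.9 CPM in wild type and at 224.1, 290.8, 165.5 and 179.1 CPM in EoE33 (log2 fold change 0.11, 95% interval −0.31 to 0.53). Krt80 was at 294.4, 333.6, 342.5 and 225.2 CPM in wild type and at 291.6, 153.2, 158.7 and 278.2 CPM in EoE33 (log2 fold change −0.44, 95% interval −0.999 to 0.12). In both the groups overlapped.

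Of the simple-epithelium keratins, Krt7, Krt19 and Krt20 rose, and Krt8 and Krt18 did not pass. Krt19, a type I keratin without a tail domain, was at 4.2, 1.89, 25 and 12.1 CPM in wild type and at 40.9, 206.25, 71.3 and 42.3 CPM in EoE33 (8.33-fold, edgeR adjusted p = 0.0177). Krt7, a type II keratin of ducts and glands, was at 3.86, 1.63, 11.6 and 4.2 CPM in wild type and at 33.6, 159.5, 36.1 and 18.5 CPM in EoE33 (11.6-fold, edgeR adjusted p = 0.00862). Krt20, a type I keratin of intestinal epithelium and umbrella cells, was at 0.0849 to 0.55 CPM in wild type and at 7.4, 33.4, 7.51 and 4.69 CPM in EoE33 (43.1-fold, edgeR adjusted p = 0.000946). No library of one group reached into the other for these 3 genes, and EoE33 replicate 2 was the highest in each.

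Without EoE33 replicate 2 the log2 fold changes of Krt19, Krt7 and Krt20 were 2.26, 2.47 and 4.42 in place of 3.06, 3.53 and 5.43, and all 3 still passed. Without wild type replicate 3 those of Krt19 and Krt7 were 3.89 and 4.25. Without wild type replicates 1 and 3 they were 3.68 and 4.39. The call of Krt19 was lost without a low-count filter (edgeR adjusted p = 0.0551).

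Krt8 was at 1.78, 0.527, 17.9 and 3.38 CPM in wild type and at 1.72, 14.8, 3.84 and 1.75 CPM in EoE33. Krt18, its partner, was at 0.891, 0.703, 9.18 and 2.18 CPM in wild type and at 2.01, 14.6, 4.01 and 2.1 CPM in EoE33. In each group a single library stood high, wild type replicate 3 and EoE33 replicate 2, and the groups overlapped. The log2 fold changes were −0.11 (95% interval −2.71 to 2.48) and 0.79 (95% interval −1.49 to 3.07). The sign of Krt8 turned without wild type replicate 3, to 1.52, and that of Krt18 without EoE33 replicate 2, to −0.25. Without wild type replicate 3 the log2 fold change of Krt18 was 2.15, also not past the threshold.

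Markers of other epithelia were measured in the same libraries, beside all genes tested, of which 31.3% rose and 32.1% fell. Of 8 airway markers 4 were tested and 3 fell, and their summed level was 1961 CPM in wild type replicate 3, where Krt8 and Krt18 were high. In EoE33 it was 58.7 to 132.4 CPM, of which Cyp2f2 alone gave 130.5, 54, 80.6 and 56.9 CPM in replicates 1 to 4. Each of the other airway markers was at most 3.34 CPM in any EoE33 library. Cyp2f2 was also at 367.3 to 784.5 CPM in wild type. Bpifa1 was at 635.5 CPM in wild type replicate 3 and at most 0.934 CPM in the other wild type libraries. Of 5 mesothelial markers none passed. Their summed level was 9.71 to 113.1 CPM in wild type, with replicates 3 and 4 highest, and 13.5 to 37.8 CPM in EoE33, with replicate 2 lowest. Of 10 gastric markers 2 were tested, Muc6 rose and Gkn3 fell, and Gkn2 and Gif had 0 counts. Their summed level was 1.23 to 2.87 CPM in wild type and 1.96 to 5.09 CPM in EoE33, highest in replicate 2. Of 4 thyroid markers 1 was tested and did not pass, at a summed 0.508 to 7.02 CPM in wild type and 2.35 to 3.28 CPM in EoE33. The part of such cells in the simple keratin values was not tested.

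Most keratins of hair and nail were nearly silent. Of the 5 tested, 4 fell and 1 rose, where 32.1% and 31.3% of all genes tested did. Since 4 of these 5 had a mean under 1 CPM in one group, some passed the count filter only through the other group. These counts are therefore a description, and untested members of the class went both ways. Krt32, a type I hair cuticle keratin, was at 68.2, 75.8, 102.4 and 47.7 CPM in wild type and at 3.77, 0.585, 1.68 and 3.15 CPM in EoE33. It was the highest of this class in wild type, and the groups were far apart (31.5-fold lower, log2 fold change −4.98, SE 0.47, edgeR adjusted p = 5.57e-05). Its exons overlap Gm11571 on the other strand, whose mean was 2.04 CPM in wild type against 0.133 in EoE33. Krt35 and Krt36, further type I members, were 13.9-fold and 2.32-fold lower, from means of 1.93 and 1.78 CPM in wild type. Krt31 was seen in 74 wild type and 3 EoE33 counts (log2 fold change −4.22, SE 0.57, edgeR adjusted p = 0.000179). By summed counts EoE33 stood at 0.0466 of wild type (95% interval 0.00939 to 0.141, for counting error alone). Of the Krt31 windows, 6.35% occur in Krt33a or Krt34. Krt84, a type II keratin of filiform papillae of the tongue and of nail, rose 10.1-fold, with means of 0.395 ± 0.19 and 4.07 ± 1.19 CPM (SD, n = 4 each).

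The hair follicle markers Lhx2, Krt71 and Krt25 did not exceed 0.117 CPM in any library. Of that list of 6 markers 2 were tested, Foxn1 and Tchh, and both rose, 2.09-fold and 5.26-fold, where 31.3% of all genes tested rose. Padi3, not tested, had 7 counts over wild type and 70 over EoE33. The summed level of the list was 10.6 to 14.7 CPM in wild type and 36 to 59.1 CPM in EoE33. Its part in the values of the hair keratins was not tested.

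Of the remaining members, Krt90, a type II keratin, rose. It was at 0.552, 0.615, 0.169 and 0.214 CPM in wild type and at 41.1, 3.1, 9.75 and 36.7 CPM in EoE33 (57.9-fold, edgeR adjusted p = 0.00143). Krt75, a type II keratin of the hair follicle companion layer next to it on the chromosome, was at 2.67, 1.93, 0.254 and 3 CPM in wild type and at 6.78, 0.936, 1.81 and 10.2 CPM in EoE33. It did not pass (log2 fold change 1.33, 95% interval −0.63 to 3.30), and without EoE33 replicate 4 its log2 fold change was 0.70. In both, EoE33 replicates 1 and 4 were high and replicate 2 the lowest. Krt222, which lacks part of the keratin rod, did not pass either, its mean being 0.844 CPM in wild type against 0.757 in EoE33.

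The 24 untested keratins had at most 36 counts over the 8 libraries, and Krt27, Krt34, Krt81 and Krt88 had 0 in all. Among them, Krt39 of the hair had 5 counts over wild type and 31 over EoE33, and Krt12 of the cornea 6 and 22. Krt42, a type I gene next to Krt17, had 1 and 27 counts, a ratio of 31 (95% interval 5.11 to 1270.0). Krt83 had 1 and 12 counts, a ratio of 13.8 (interval 2.04 to 589). Krt86 had 0 and 16 counts, which is at least 6.13-fold higher in EoE33 when wild type is set to 3 counts as a group. Krt77 and Krt33a went the other way, with 14 and 2 counts and 12 and 1 counts (ratios of 0.164, interval 0.0181 to 0.714, and 0.0957, interval 0.00224 to 0.647). These limits hold for counting error alone, because the reads carry no molecular identifiers and need not be independent molecules.

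Keratin genes lie in 2 clusters (GRCm38), and members that lie side by side often had the same call. The type I cluster holds 27 members on chromosome 11 from 99232761 to 100269871. The type II cluster on chromosome 15, from 101347444 to 102032027, holds 25 type II members and the type I gene Krt18. On chromosome 11 the tested neighbours Krt31, Krt32, Krt35, Krt36, Krt13 and Krt15 all fell. Next to them Krt19, Krt14, Krt16 and Krt17 all rose, with the untested Krt9 between Krt19 and Krt14. Krt15 (100131758 to 100135928) and Krt19 (100140810 to 100148665) are direct neighbours that changed in opposite directions.

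On chromosome 15, Krt6b (101676023 to 101680287), Krt6a (101689910 to 101694307) and Krt5 (101707070 to 101712898) are neighbours and rose. Of the tested members from Krt1 to Krt78 (101845426 to 101954287), Krt1, Krt76, Krt4, Krt79 and Krt78 fell. No window of Krt5, Krt4, Krt13 or Krt15 occurs in a transcript of another gene. Opposite-strand gene models overlap the exons of Krt5, Krt6a and Krt6b, and each had 0 counts in all libraries.

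**Figure D4:**
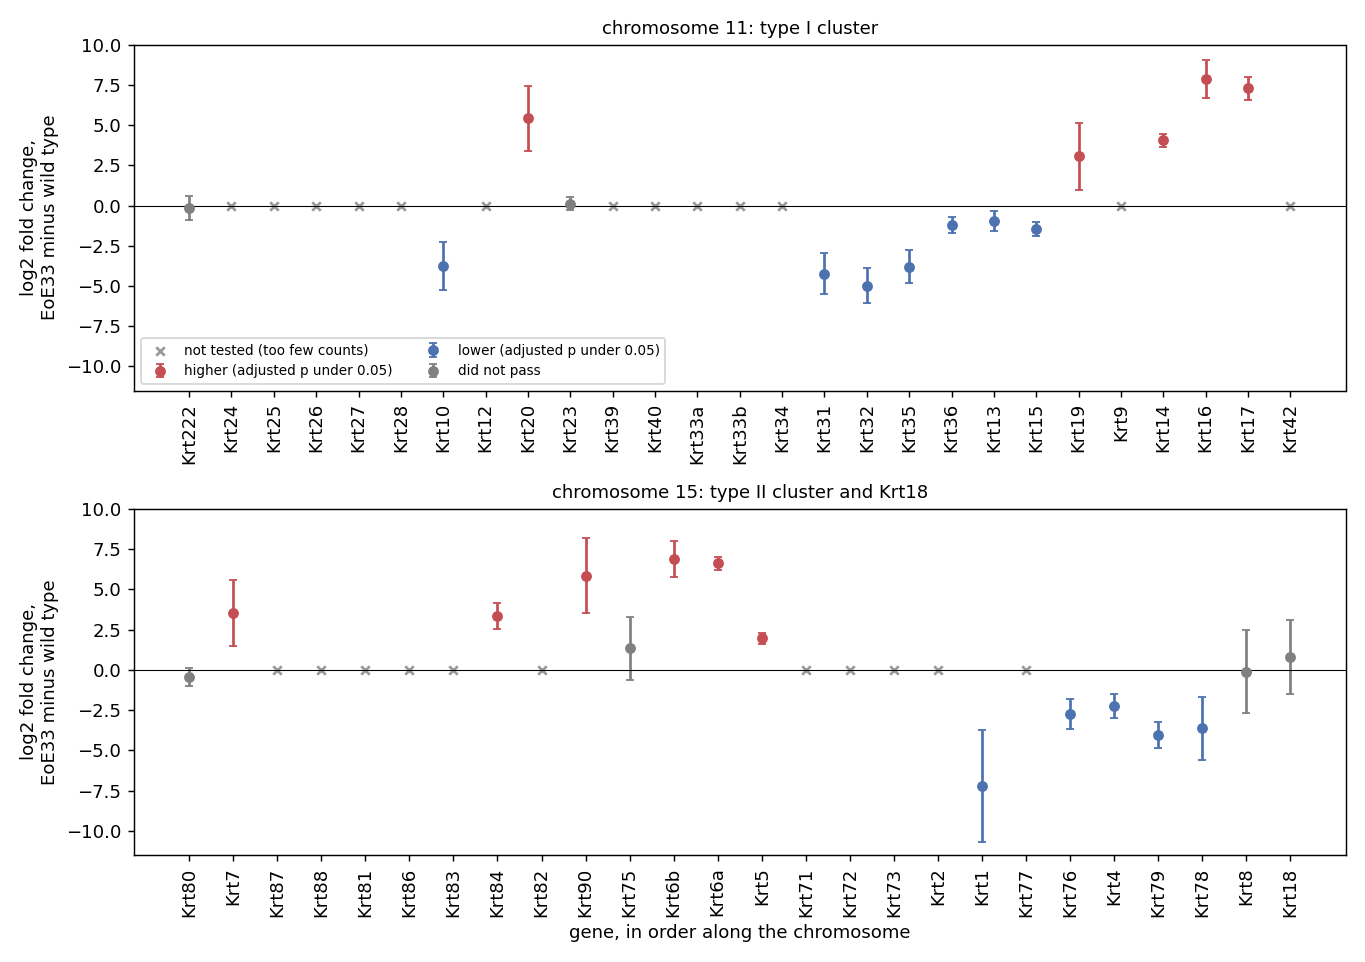
Log2 fold change (EoE33 minus wild type) of each keratin in its order along chromosome 11 and chromosome 15, with 95% intervals, red for higher, blue for lower, grey for not passed and crosses at 0 for members not tested. The run from Krt31 to Krt15 lies below 0 and the run from Krt14 to Krt17 above, and on chromosome 15 Krt6b, Krt6a and Krt5 lie above 0 and the members from Krt1 to Krt78 below.

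Genes that work with keratins were described from lists, beside all genes tested, of which 31.3% rose and 32.1% fell. Of 14 tested genes listed as linkers of keratin filaments, 5 rose, 7 fell and 2 did not pass, with a median log2 fold change of −0.11. Of the desmosomal plaque genes, Dsp, which anchors keratin filaments at the desmosome, rose 1.55-fold, Jup 1.68-fold, Pkp1 1.39-fold and Pkp2 2.70-fold. Pkp3 of the same plaque did not pass (1.32-fold, edgeR adjusted p = 0.0584). The plakins of the cornified envelope Ppl and Evpl and the hemidesmosome and cytolinker genes Plec and Dst fell, with log2 fold changes of −0.84, −0.58, −0.37 and −0.35. For Plec the groups overlapped. The libraries also hold muscle, whose markers fell, and its part in the values of Plec and Dst was not tested. Flg, whose protein bundles keratin filaments in cornified cells, and Hrnr had log2 fold changes of −7.28 and −6.61. Krtdap, a keratinocyte differentiation gene rather than a linker, is counted in this list and had a log2 fold change of −2.75.

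Of 20 transcription factors of squamous epithelium, 9 rose, 5 fell and 6 did not pass, with a median log2 fold change of 0.34. Over all genes tested, 31.3% rose and 32.1% fell, and no test was run over the lists. Elf3, a factor of epithelial differentiation, rose 33.2-fold. Trp63, the factor of basal identity, rose 1.98-fold and Klf5, a factor of proliferating basal cells, 1.80-fold. Klf4 and Grhl3 fell, with log2 fold changes of −0.76 and −0.65. Pax9, Nfe2l2 and Cebpb fell too. Elsewhere in the list Ehf rose 1.78-fold, Sox2 1.40-fold, Tfap2a 1.33-fold, Stat3 1.27-fold and Zfp750 1.26-fold. Grhl1, Ovol1, Tfap2c, Gata3 and Cebpa did not pass. Fosl1, a subunit of AP-1, rose 3.82-fold, and Stat6 did not pass (1.07-fold, edgeR adjusted p = 0.241). Of 12 other tested intermediate filament genes, 3 rose and 6 fell. Des, the filament of muscle, fell with a log2 fold change of −1.48 and Vim, that of mesenchymal cells, with −0.57, while the lamin gene Lmnb1 rose 2.42-fold.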

How the data were processed

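The authors deposited raw counts per Ensembl gene in 1 table, used here unaltered. The submitters' processing notes name Trimmomatic 0.36, STAR 2.5.2b, featureCounts, Subread 1.5.2 and GRCm38. Which annotation release served for counting, and whether strand or multiply aligned reads were taken into account, is not given in the sources used here. Reads of overlapping genes on opposite strands may therefore be mixed. Columns were assigned to samples by the spreadsheet letter in each description. Symbols, lengths and coordinates came from GENCODE M21, which held 49056 of the 49315 identifiers.

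Genes kept by filterByExpr by group (16760) were scaled by TMM and tested by quasi-likelihood (glmQLFit, robust = TRUE, then glmQLFTest, of edgeR 4.0.16) under R 4.3.3, the design holding genotype alone. P-values were adjusted by Benjamini-Hochberg over all genes tested, with 0.05 as the threshold, and standard errors came from the F statistic. The labels do not say that mice of a group came from separate litters, so p-values measure the spread between these libraries. All pairs of libraries within a group differed by more than sampling noise. The procedure was tested on simulated data, with 50 genes at each size of change. It called 34% of 1.5-fold, 88% of 2-fold and 94% of 4-fold rises. Of falls to 0.25 of the level it called 98%, and 10 calls were false. Most 1.5-fold rises were thus missed in this simulation. It changed a far smaller part of the genes than the 63.4% called in the data. That makes the adjusted threshold stricter, so these rates do not carry over to the data. At 3 counts, single libraries reach down to 0.127 to 0.176 CPM.

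The members, classes and lists were chosen with earlier results of these data known. Every keratin with a mean of at least 1 CPM in either group was named. Values per library were given for those with a mean of at least 100 CPM, the 3 largest rises and falls, and Krt5, Krt14, Krt13, Krt4, Krt6a and Krt17, and other per-library values and untested members were picked after they were seen. As alternatives, scaling (DESeq2 size factors, upper quartile, library size with and without Chil4), the tool (DESeq2 1.42.0, limma-voom of limma 3.58.1, robust = FALSE), the count filter, a replicate block, a threshold of 0.01, gene length and the libraries kept were varied.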

Additional observations from a re-analysis of the deposited data

Results flagged for a closer look

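In a group of 4, a library was marked when its gap to the nearest other library divided by the range of the group exceeded the 95% critical value of Dixon. Of 60 groups checked, 6 were marked, and chance marks about 1 in 20. EoE33 replicate 2 was the highest of its group for Krt20 (33.4 CPM against 4.69 to 7.51), Krt7 (159.5 CPM against 18.5 to 36.1), Krt8 (14.8 CPM against 1.72 to 3.84) and Krt18 (14.6 CPM against 2.01 to 4.01). Wild type replicate 3 was the highest for Krt8 (17.9 CPM against 0.527 to 3.38). EoE33 replicate 4 was the highest for Krt84 (5.84 CPM against 3.39 to 3.63).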

How the results depend on the processing

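Of 27 named keratins, 21 kept their direction and their side of the threshold under all 20 alternatives run for them. The others were Krt1, Krt8, Krt13, Krt18, Krt19 and Krt23, and the cause was not tested. Counts of keratins stayed within 1.5 times the main counts: 10 to 16 higher and 11 to 12 lower, the highest with the DESeq2 Wald test and 11 to 11 and 12 to 12 when 1 library was left out. Over all genes, leaving out 1 library gave 4825 to 5160 higher and 4880 to 5333 lower. Signs turned for members that did not pass. Without EoE33 replicate 2, Krt23 was −0.064 and Krt18 −0.25. Leaving out 1 library, Krt23 ranged from −0.064 to 0.229, Krt18 from −0.25 to 2.15 and Krt8 from −1.26 to 1.52. Krt8 was 0.0128 with library size without Chil4, 0.31 in limma-voom, 1.52 without wild type replicate 3, 0.19 without EoE33 replicate 1, 0.032 without EoE33 replicate 3, 0.19 without EoE33 replicate 4, and 1.47 without wild type replicates 1 and 3. With the longest transcript as gene length, the wild type shares of Krt4 and Krt13 were 42.05% and 51.1%. Without 1 library each they lay between 44.1% and 44.4% and between 48.6% and 48.8%. The replicate numbers did not pair the samples: deviations of same-numbered libraries correlated at 0.124, −0.125, 0.0562 and −0.128. With the replicate number as a block, 10 keratins were higher and 12 lower, and Krt19 lost its call (edgeR adjusted p = 0.0569). In that fit the log2 fold changes of Krt78 and Krt1 were −4.29 and −6.47, and both still passed. Chosen after seeing the data were the sums of Krt6a with Gm5478 and of Krt16 with Gm11597, which left their log2 fold changes at 6.62 and 7.84.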
